A study of Mus musculus with 8 samples.

Results

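Transcripts of 10 Wnt and beta-catenin genes were followed in the multipotent progenitors (MPPs) that feed blood formation in mouse bone marrow. The genes were Ctnnb1, Tcf7, Tcf7l2, Lef1, Axin1, Axin2, Gsk3b, Apc, Csnk1a1 and Lrp6, taken by name, and all 10 were found among the 37980 gene rows of the table. The study asked how the NUP98-HOXA10hd fusion (NA), which joins part of a nuclear pore protein to the homeodomain of HOXA10, alters these progenitors. NA MPPs came from NA LSL/+; Vav-Cre mice, in which Cre driven by the Vav promoter switches on the fusion from the Rosa26 locus across blood cells. WT MPPs came from wild-type mice, and the sources used here do not say whether these carried Cre. Both groups were C57BL/6, no treatment beyond the sort was named, and the ages of the mice behind these libraries were not given. Each library was made from 1000 cells with the surface profile Lin- CD48- c-kit+ Sca1+ CD135+ CD150-. There were 4 NA libraries and 4 WT libraries, named here by group and number, and nothing in the labels says that each came from a separate mouse, so p-values measure only the spread between these libraries.

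In the canonical Wnt pathway, beta-catenin is held low by a destruction complex in which the scaffolds AXIN and APC bring it to the kinases CK1 alpha and GSK3 beta. Phosphorylated beta-catenin is ubiquitinated and degraded. When a Wnt ligand binds a Frizzled receptor together with LRP5 or LRP6, the complex is disabled, and beta-catenin enters the nucleus and activates genes bound by TCF and LEF factors, among them Axin2. In blood, TCF7 and LEF1 are best known from early T cell development, and the dose of Wnt signal has been linked to stem cell self-renewal. Much of the control acts on the protein, so transcript levels are not a measure of pathway activity.

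The libraries held between 3876893 and 4917008 estimated reads. NA4 and WT4 lay closer than the rest to the other libraries of their group. Of 11451 genes, 67.7% in NA4 and 75.2% in WT4 fell within the range of the other 3 libraries, against 38.2% to 50.2% in the other 6. Pearson r with the mean of the other 3 was 0.988 in NA4 and 0.992 in WT4, against 0.955 to 0.971 in the other 6. The labels do not say why, and whether the fourth libraries are independent of the others was not tested. Each SD and the main p-values count them as independent, so results are also given without the fourth libraries. The groups also differed in sex-linked transcripts. Xist was between 868.6 and 1285 normalised counts in WT and at most 2.8 in NA, while Eif2s3y was between 516.2 and 666.5 in NA and at most 0.89 in WT, so genotype and sex cannot be told apart. Markers of the gate were present, with Kit at 1103 or more and Flt3 at 1274 or more in every library. Ly6a, the gene of Sca1, was at 1221 to 1408 in NA and 1482 to 1614 in WT. Cd48, which the sort gated out, was at 12.2 to 22.4 in NA and 34.2 to 83.8 in WT. The groups did not overlap for Ly6a and Cd48, whereas they did for Kit, Flt3, Cd34 and Slamf1. The part of these differences in the results was not tested. Of 13 T cell markers, 7 were at 0 in all 8 libraries, including Cd3d, Cd3e, Cd3g and Bcl11b, and the summed level of the list was 129.9 to 227.1 in NA and 206.1 to 314.8 in WT, most of it Lck. Erythroid markers summed to 31.9 to 63.0 in NA and 144.6 to 286.7 in WT, and their part in the results was not tested. The 8 granulocyte and monocyte markers summed to 2310 in WT3 and to 1688 to 1916 in the other libraries. Most of each sum was Lyz2, at 2019 in WT3 and 1652 to 1807 elsewhere. Mpo was at 52.4 in WT3 and at most 42.6 elsewhere. S100a8 (64.9, at most 21.3 elsewhere) and S100a9 (158.3, at most 47.9) were highest in WT3. Itgam was at 15.9 there and 14.8 to 31.1 elsewhere, and Csf1r was at 0 there and at most 12.4 elsewhere. The 6 markers of stroma and endothelium summed to 230.8 in NA3 and to 74.3 to 137.0 in the other libraries, with Cdh5 at 0 throughout. Cxcl12 (100.6, at most 28.3 elsewhere), Lepr (19.4, at most 2.4) and Pecam1 (69.2, at most 62.3) were highest in NA3, whereas Col1a2 was at 41.5 there and 24.8 to 64.9 elsewhere, and Col1a1 was at 0 there and at most 9.06 elsewhere. In bulk samples of this kind fewer expressing cells and less RNA per cell cannot be told apart.

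The pathway was represented unevenly. Ctnnb1, the kinase genes Gsk3b and Csnk1a1 and the scaffold genes Axin1 and Apc were well read, whereas Tcf7, Lef1 and Axin2 were at or near 0 in both groups. Gsk3b and Csnk1a1, which encode kinases of the destruction complex, were called higher in NA MPPs, and no member was called lower. Of 19 alternative settings, 2 lost the Csnk1a1 call and 2 called Apc lower, while the Gsk3b call held in all. Values are normalised counts, which are RSEM counts that the authors had divided by 1 size factor per library. Of the 10 members, 7 reached at least 10 normalised counts in at least 4 libraries and were tested by limma among 11451 genes, with an adjusted p (Benjamini-Hochberg over all of them) below 0.05 counted as a call. Of these 7, 2 were called higher, where 10.1% of all genes tested were called higher, and 0 were called lower, where the share was 7.87%. Scaling by total counts changed the balance over all genes from 1152 higher and 901 lower to 927 higher and 1313 lower, and the same 2 members passed as higher. Ctnnb1 and Tcf7l2, both higher, and Apc, lower, had an unadjusted limma p below 0.05, but their groups overlapped and none was called. The share of all genes below that looser threshold was not counted, so these are not further results. A fold change is the difference of mean log2(normalised count + 1), NA minus WT. Over the 7 members its median was 0.25, beside -0.01 over all genes tested.

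**Figure D1:**
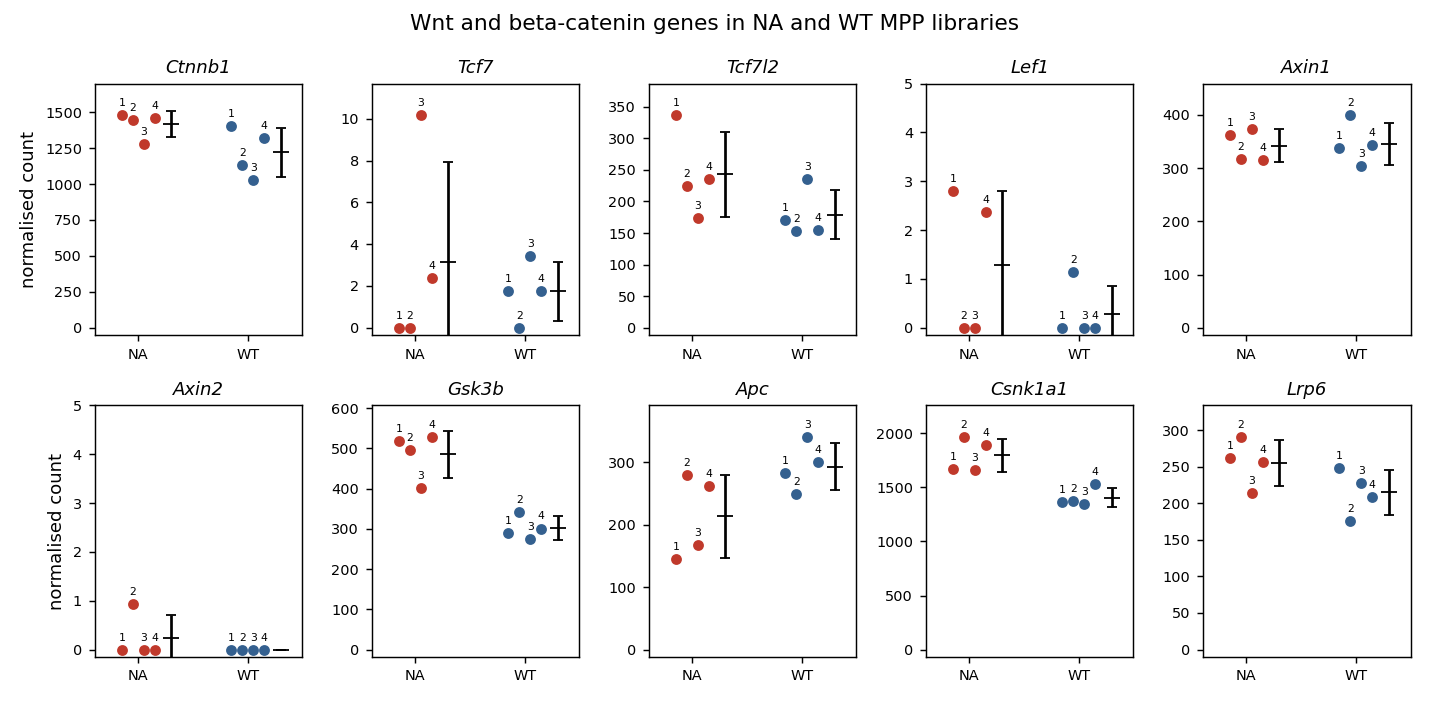
Normalised counts of the 10 genes in each library, with NA in red, WT in blue and the library number above each point. The black bar is the group mean with its SD (n = 4), clipped by the axis below 0, and each panel has its own linear axis. Gsk3b and Csnk1a1 are the genes whose groups do not overlap, and Tcf7, Lef1 and Axin2 lie near 0.

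Between genes, levels were compared per kilobase of annotated exon, so the order depends on lengths that count all annotated exons of a gene. Before division by length Csnk1a1 averaged above Ctnnb1, at 1798 against 1415 in NA and 1406 against 1222 in WT. Gsk3b averaged above Axin1 in NA, at 486.0 against 341.8, and below it in WT, at 302.3 against 345.6. Ctnnb1 was the most abundant member per kilobase, at 272.5 ± 17.5 normalised counts per kb in NA and 235.3 ± 33.0 in WT (SD, n = 4 each). Csnk1a1 followed at 171.2 ± 14.5 and 133.9 ± 8.38, Axin1 at 89.3 ± 8.03 and 90.3 ± 10.4, and Gsk3b at 49.4 ± 5.94 and 30.7 ± 2.97. These 4 and the next, Tcf7l2 at 27.7 ± 7.71 and 20.4 ± 4.43, kept this order in both groups with no overlap between neighbours. Tcf7l2, Lrp6 and Apc overlapped in range with their neighbours and were not ordered. Tcf7, Lef1 and Axin2 came last, below 1.2 normalised counts per kb on average. The cDNA was amplified from poly(A) RNA, and coverage along long transcripts such as Apc was not tested.

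Lrp6 encodes the co-receptor that pairs with Frizzled. It lies on the minus strand at chr6:134446476-134566965 (mm10, as for all gene positions here). Normalised counts were 261.4, 290.5, 214.2 and 256.3 in NA1 to NA4 and 248.6, 175.5, 227.7 and 208.6 in WT1 to WT4. The groups overlapped, with the lowest NA library, NA3, below WT1 and WT3. Its log2 fold change was 0.25 with a 95% interval from -0.06 to 0.56 (adjusted p = 0.244 by limma). Lrp5, the other co-receptor of this kind, was between 3.4 and 10.7 normalised counts and was not tested.

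Gsk3b encodes the kinase that adds the final phosphates to beta-catenin before its degradation. The gene lies on the plus strand at chr16:38089001-38246084. Its normalised counts were 519.0, 496.3, 400.7 and 527.9 in NA1 to NA4 and 289.4, 343.1, 275.5 and 301.0 in WT1 to WT4. Every NA library was above every WT library, and NA3 was the lowest of the NA group. The log2 fold change was 0.68 with a standard error of 0.12 (adjusted p = 0.00172 by limma), or 1.61-fold between the group means. The call held under all 19 alternatives, with an adjusted p of 0.0395 without the fourth libraries, a setting in which 3.31% of all genes tested were called higher. Gsk3a, which encodes the closely related kinase GSK3 alpha, was at 33.7 ± 14.8 in NA and 32.3 ± 6.24 in WT (SD, n = 4 each), and the log2 fold change was -0.01 (adjusted p = 0.983 by limma). Per kilobase, Gsk3b made up 81.1% ± 7.32 of the sum of both genes in NA and 73.5% ± 4.05 in WT (SD, n = 4 each), and these shares overlapped. The sum itself was 53.2 to 69.0 normalised counts per kb in NA and 36.7 to 45.1 in WT.

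Csnk1a1 encodes CK1 alpha, which primes beta-catenin for GSK3. It lies at chr18:61555274-61590061 on the plus strand. Counts after normalisation were 1673, 1965, 1665 and 1889 in NA1 to NA4 and 1367, 1378, 1342 and 1536 in WT1 to WT4. The groups did not overlap, and WT4 was the WT library nearest to the NA group. Among all genes tested, 22% had groups that did not overlap, 11.5% with NA higher. The log2 fold change was 0.35 with a standard error of 0.08 (adjusted p = 0.0108 by limma), or 1.28-fold between the means. The call was lost without the fourth libraries (adjusted p = 0.0629 by limma) and without a mean-variance trend (0.0644).

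Other casein kinase 1 genes did not all move with it. Csnk1e, whose product acts with Dishevelled at the receptor, was at 450.0 ± 12.2 in NA and 301.4 ± 18.4 in WT (SD, n = 4 each), and the log2 fold change was 0.58 (adjusted p = 0.00156 by limma). That call held under all 19 alternatives (adjusted p = 0.0424 without the fourth libraries). Csnk1d was at 767.5 ± 72.7 and 768.3 ± 65.0, with a log2 fold change of -0.0023 and a 95% interval from -0.21 to 0.21. Csnk1g3 had a log2 fold change of 0.37 (adjusted p = 0.0543 by limma), Csnk1g1 of 0.06 (0.887) and Csnk1g2 of -0.25 (0.0950). Of these 3, Csnk1g3 passed without NA3 (0.0313), with the replicate block (0.0473) and when genes averaging under 50 were dropped (0.0475), and Csnk1g2 passed as lower without NA1 (0.0402) and with total-count scaling (0.0338). Per kilobase, Csnk1a1 held 28.2% ± 1.84 of the sum over these 6 genes in NA and 24.3% ± 1.99 in WT, and Csnk1e held 11.3% ± 0.22 and 8.29% ± 0.45 (SD, n = 4 each). The Csnk1e shares did not overlap, whereas the Csnk1a1 share of WT4, 27.2%, was above those of NA1 and NA3. Csnk1g2 shares did not overlap either and were lower in NA, at 18.8% to 24.0%, than in WT, at 25.5% to 28.8%.

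**Figure D2:**
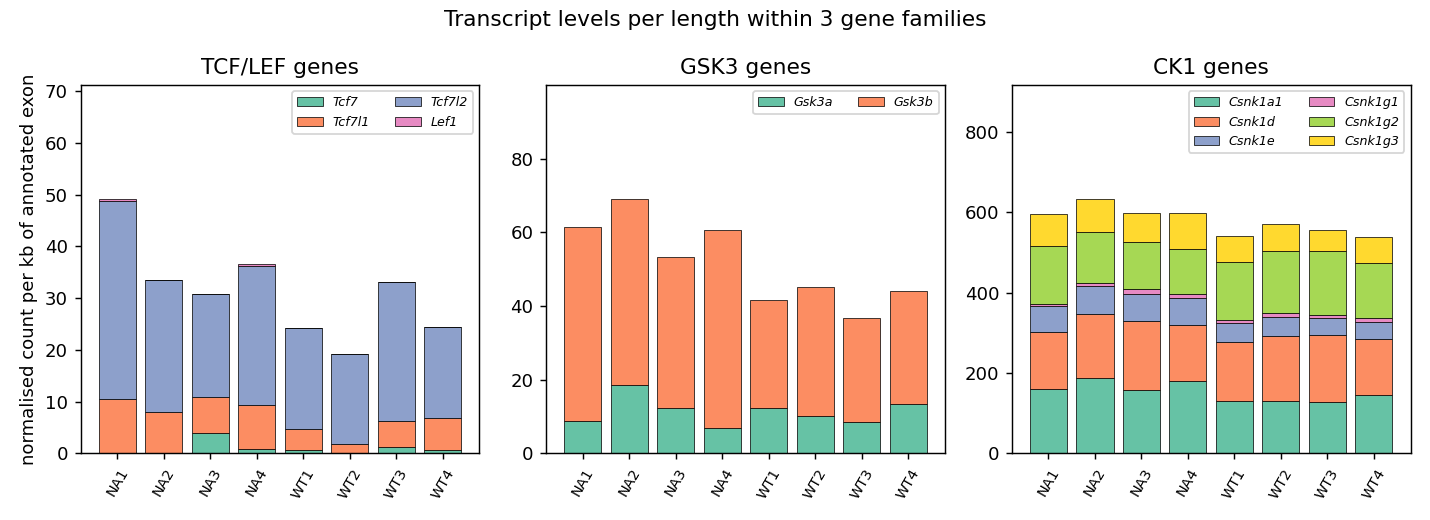
Stacked normalised counts per kb of annotated exon in each library for the TCF/LEF, GSK3 and casein kinase 1 (CK1) genes, 1 bar per library. Tcf7l2 forms most of the TCF/LEF bar in all 8 libraries, and the GSK3 bars are taller in the 4 NA libraries, at 53.2 to 69.0, than in the 4 WT libraries, at 36.7 to 45.1.

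Axin1, the constitutive scaffold of the complex, was the least changed member. It lies at chr17:26138688-26195811 on the plus strand. Its normalised counts were 362.2, 316.8, 373.9 and 314.2 in NA1 to NA4 and 337.4, 398.6, 302.9 and 343.6 in WT1 to WT4. The highest and the lowest library were both WT. The log2 fold change was -0.01 with a 95% interval from -0.27 to 0.24 (adjusted p = 0.952 by limma), and its sign depended on the setting, from -0.08 to 0.11.

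Apc encodes the large scaffold that binds beta-catenin and AXIN. The gene is at chr18:34220924-34322552 on the plus strand and has 1 annotated pseudogene. Normalised counts of Apc were 145.6, 279.2, 167.1 and 262.2 in NA1 to NA4 and 282.3, 249.1, 340.4 and 301.0 in WT1 to WT4. NA1 and NA3 lay below every WT library, while NA2 and NA4 lay within the WT range. For Apc the log2 fold change was -0.50 with a 95% interval from -0.92 to -0.08, before adjustment for the number of genes (adjusted p = 0.0909 by limma). It passed at -0.62 with a per-library trend on transcript GC content removed (adjusted p = 0.0294 by limma) and at -0.65 without NA2 (0.0418). Without the fourth libraries it was -0.60 (0.168).

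Axin2 encodes the inducible scaffold and is widely used as a readout of beta-catenin and TCF activity. It lies at chr11:108920349-108950783 on the plus strand. It was at 0 in 7 libraries and at 0.94 normalised counts, or 1 estimated read, in NA2. At this depth a count of 0 allows up to 3 reads, or 2.66 to 3.54 normalised counts depending on the library, so no difference was detectable and no fold is given. The promoters of Gsk3b, the member with the lowest adjusted p, and of Axin2, the one with fewest reads, are shown as the 250 bases before the annotated start, from RefSeq (GRCm38.p6). They are at chr16:38088751-38089000 and chr11:108920099-108920348, both on the plus strand and written 5′ to 3′. Capitals mark the core letters bound by TCF and LEF factors, CTTTGA or, as here, their reverse complement.

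Gsk3b: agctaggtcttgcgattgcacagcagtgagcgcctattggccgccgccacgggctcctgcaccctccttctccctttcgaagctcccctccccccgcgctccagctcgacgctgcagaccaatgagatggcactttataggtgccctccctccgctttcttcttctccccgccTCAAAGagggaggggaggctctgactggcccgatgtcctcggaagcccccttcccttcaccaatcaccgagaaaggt
Axin2: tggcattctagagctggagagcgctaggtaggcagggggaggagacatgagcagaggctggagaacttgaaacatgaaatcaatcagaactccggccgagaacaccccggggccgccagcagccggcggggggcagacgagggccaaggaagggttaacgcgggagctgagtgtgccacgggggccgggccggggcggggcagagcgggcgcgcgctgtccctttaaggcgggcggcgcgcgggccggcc

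The Gsk3b window held these letters once, from 77 bases before the start, and the Axin2 window did not hold them. Both windows were rich in G and C, at 62.0% and 69.2%. RefSeq windows of 300 bases were at hand for 6 members, Axin2, Ctnnb1, Gsk3b, Lef1, Tcf7 and Tcf7l2, with 12 annotated starts in all. The letters were in 2 of the 12, those of Gsk3b and of 1 downstream start of Lef1, beside 16.0% of all 32851 windows. A match of 6 letters is a description of the window, not a binding site.

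Ctnnb1 encodes beta-catenin, the transcriptional co-activator at the centre of the pathway and a partner of cadherins at the membrane. The gene lies at chr9:120929216-120960507 on the plus strand. Its normalised counts were 1477, 1447, 1280 and 1456 in NA1 to NA4 and 1404, 1131, 1030 and 1320 in WT1 to WT4. The 3 highest libraries were NA, and NA3 lay below WT1 and WT4. For Ctnnb1 the log2 fold change was 0.22 with a standard error of 0.10 and a 95% interval from 0.0026 to 0.44 (adjusted p = 0.149 by limma). Across the 19 alternatives it ran from 0.14 to 0.29 and never passed. None of the related catenins passed either. Ctnna1, which links beta-catenin to actin, had a log2 fold change of 0.08 (adjusted p = 0.728 by limma), Ctnnd1 of 0.18 (0.562) and Jup, the gene of the beta-catenin relative plakoglobin, of -0.58 (0.200).

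Tcf7l2 encodes TCF4, a DNA-binding partner of beta-catenin, and was the main TCF/LEF transcript of these cells. It lies at chr19:55741820-55933654 on the plus strand. Its normalised counts were 336.1, 224.7, 174.5 and 236.2 in NA1 to NA4 and 170.5, 152.9, 235.7 and 155.4 in WT1 to WT4. The groups overlapped because WT3 was above NA2 and NA3, and it lay just below NA4. For Tcf7l2 the log2 fold change was 0.42 with a 95% interval from 0.0050 to 0.84 (adjusted p = 0.149 by limma). It was 0.26 without NA1, the highest library, and 0.57 without NA3, and passed in neither (adjusted p = 0.341 and 0.0517 by limma). Per kilobase, Tcf7l2 made up 64.5% to 78.0% of the 4 TCF/LEF genes in NA and 72.3% to 90.4% in WT.

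Tcf7l1, the gene of the family member TCF3 that mostly acts as a repressor, was second. It was at 33.2 ± 5.69 in NA and 16.5 ± 7.27 in WT (SD, n = 4 each). The groups did not overlap, and the log2 fold change was 1.07 (adjusted p = 0.0760 by limma), which passed only with the GC trend removed.

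Tcf7, at chr11:52252371-52283014 on the minus strand, encodes the T cell factor TCF1. It was at 0, 0, 10.2 and 2.36 normalised counts in NA1 to NA4 and at 1.78, 0, 3.42 and 1.78 in WT1 to WT4. NA3, in which the stroma and endothelium markers summed highest, had 11 estimated reads, and no other library had more than 3. The part of those markers in that value was not tested. Lef1, at chr3:131110471-131224356 on the plus strand, encodes the fourth factor of the family. It was at 2.8, 0, 0 and 2.36 in NA1 to NA4 and at 0, 1.13, 0 and 0 in WT1 to WT4, or at most 3 estimated reads. Neither gene was read deeply enough for a comparison, and neither was tested.

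The other genes of the pathway were taken from a list arranged by role. It held 139 genes of the table, the 10 members among them, and 74 were tested. Of these 74, 15 were higher and 1 was lower in NA, where 10.1% of all genes tested were called higher, 7.87% lower and 17.9% in either direction. The 15 became 9 without NA4 and 7 without the fourth libraries, with 0 lower in both. Over all 11451 genes tested, the higher calls also fell, from 1152 to 675 without NA4 and to 379, or 3.31%, without the fourth libraries. Among the 15, Znrf3 reached 10 normalised counts in NA alone, so that its entry into the test depended on its difference, and without it 14 of 73 were higher. The median log2 fold change over the 74 was 0.19, with 51 of them above 0, beside 48.8% of all genes tested. Without the 10 members, 13 of 67 were higher and 1 was lower, with a median of 0.19.

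Ligands were not read in these cells at a testable level. Of 19 Wnt genes, 15 were at 0 in all 8 libraries, and the highest value among them was 16.6, for Wnt10b in NA3. Of the R-spondin genes, whose products amplify Wnt signals, 3 of 4 were at 0 throughout and Rspo1 reached at most 2.36. Wls, which encodes the carrier that takes Wnt proteins to the cell surface, was well read and higher in NA, at 1053, 1154, 896.5 and 1137 in NA1 to NA4 and 698.7, 719.1, 701.3 and 781.3 in WT1 to WT4. The groups did not overlap. Its log2 fold change was 0.54 with a standard error of 0.10 (adjusted p = 0.00183 by limma), and the call held under all 19 alternatives (0.0250 without the fourth libraries). Porcn, the gene of the enzyme that lipidates Wnt proteins, had a log2 fold change of 0.12 (0.859).

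Among receptors and their regulators, 3 of 10 tested genes were higher and 0 lower by limma with Znrf3 left out, beside 10.1% and 7.87% of all genes tested. Znrf3, which encodes a ubiquitin ligase that removes Frizzled from the surface and is itself a common Wnt target, was at 23.6 ± 4.66 in NA and 5.19 ± 2.96 in WT (SD, n = 4 each). It was between 20.1 and 30.5 in NA and between 2.28 and 8.88 in WT, with no overlap, and is given as a description because it was tested only through its NA values. Fzd3, a Frizzled receptor, had a log2 fold change of 1.33 (0.0314), Lgr4, an R-spondin receptor, of 0.99 (0.0233), and Ryk, a co-receptor, of 0.59 (0.0315). None of these 3 passed without the fourth libraries (0.238, 0.161 and 0.127), and each was also lost when at least 3 of the single libraries were left out in turn, NA4 and WT1 among them for all 3 (without NA4, 0.118 for Fzd3, 0.0987 for Lgr4 and 0.0649 for Ryk). Of 16 secreted and surface inhibitors, Kremen1 and Sfrp1 were tested and neither passed (0.499 and 0.289).

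Frat2 gave one of the clearest differences of the list. FRAT proteins bind GSK3 and can keep it from AXIN. Frat2 was at 652.5, 707.8, 761.7 and 628.3 normalised counts in NA1 to NA4 and at 269.0, 360.1, 387.1 and 332.0 in WT1 to WT4. The lowest NA value was well above the highest WT value. Its log2 fold change was 1.04 with a standard error of 0.12 (adjusted p = 7.40e-05 by limma), and it held under all 19 alternatives (0.00162 without the fourth libraries). Frat1 was at 0 in every library, and the 3 Dishevelled genes did not pass, with log2 fold changes of 0.37 for Dvl1 (0.265), -0.14 for Dvl2 (0.675) and 0.22 for Dvl3 (0.789).

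In the destruction complex and its turnover, 5 of 19 tested genes were higher and 0 lower by limma, beside 10.1% and 7.87% of all genes tested. Beside Gsk3b, Csnk1a1 and Csnk1e these were Skp1a and Tnks. Skp1a, a subunit of the ubiquitin ligase that takes phosphorylated beta-catenin and many other proteins, was at 480.7, 467.2, 623.2 and 550.4 in NA1 to NA4 and 275.2, 231.0, 156.0 and 231.7 in WT1 to WT4. The groups did not overlap, the log2 fold change was 1.26 (adjusted p = 0.000148 by limma), and the call held under all 19 alternatives (0.00371 without the fourth libraries). Btrc and Fbxw11, the genes of the subunits that recognise beta-catenin in that ligase, had log2 fold changes of -0.40 (0.122) and 0.20 (0.152). Tnks, which encodes a tankyrase that marks AXIN for degradation, had a log2 fold change of 0.99 (0.0483), and this call was lost in 12 of 19 alternatives. Those included leaving out NA1, NA3, NA4, WT1, WT2 or WT4 (0.0966 to 0.125).

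**Figure D3:**
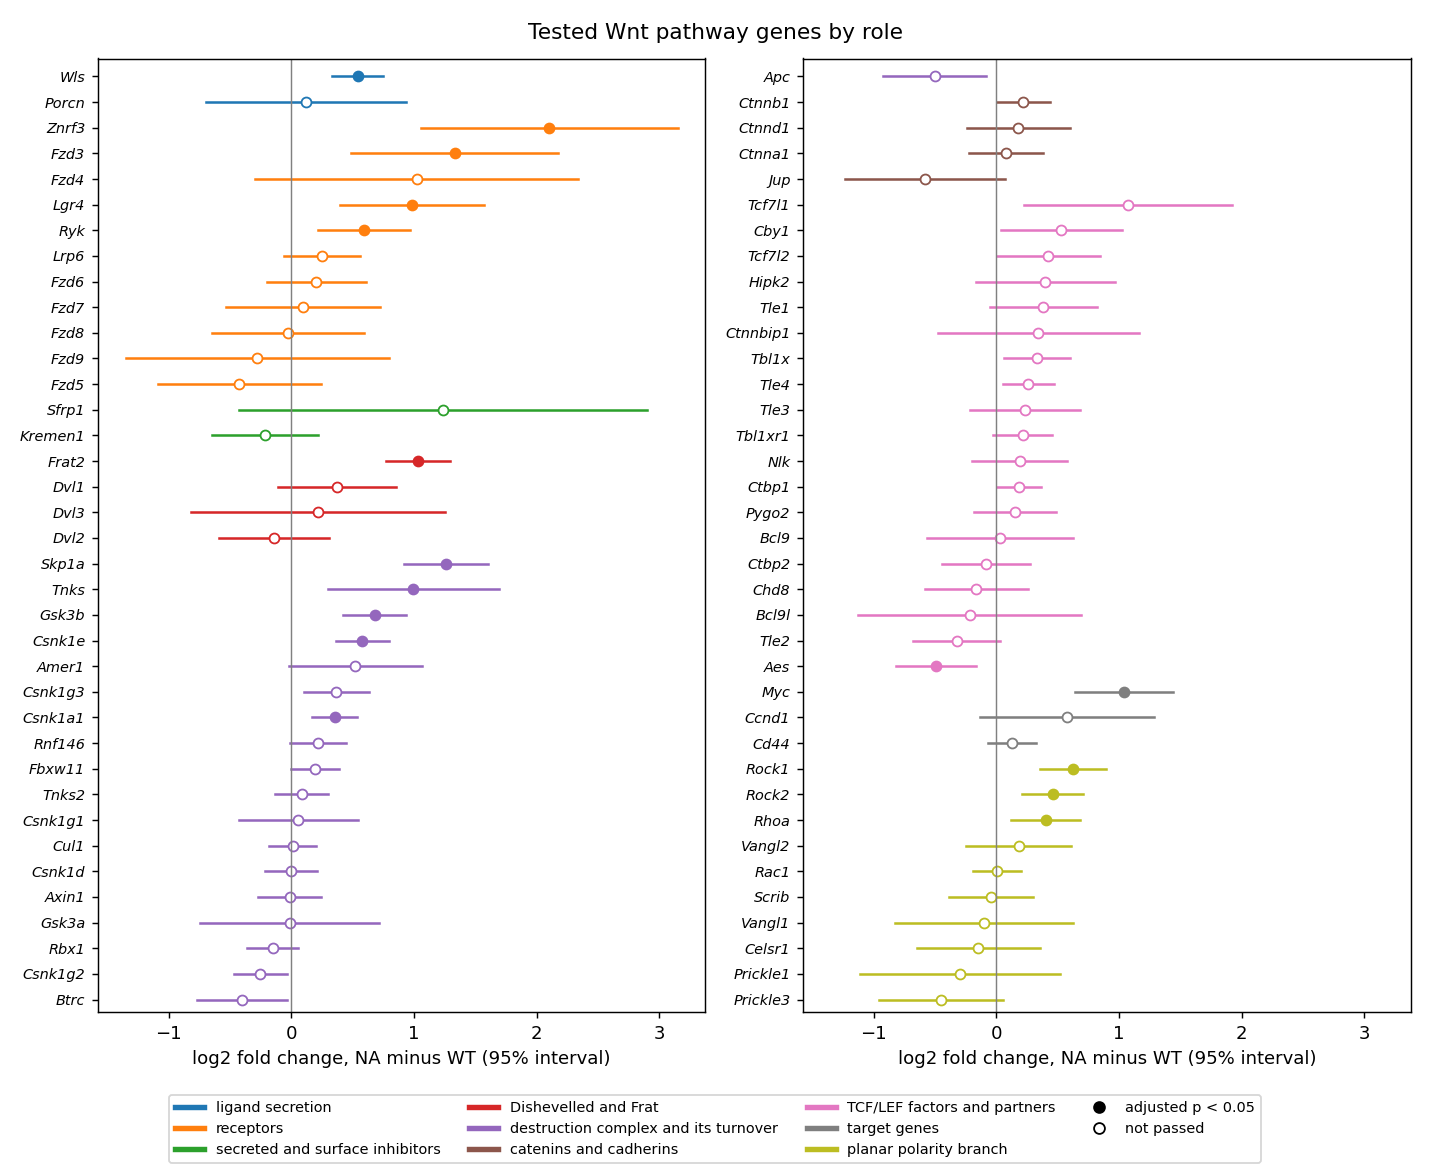
Log2 fold change, NA minus WT, with its 95% interval for the 74 tested pathway genes, coloured by role (a gene with several roles is drawn under the first), where filled points passed an adjusted p of 0.05 by limma. The 16 filled points lie to the right of 0 except that of Aes, and Znrf3 was tested only through its NA values.

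Among TCF/LEF factors and their partners, 0 of 19 tested genes were higher and 1 was lower by limma, where 10.1% and 7.87% of all genes tested were, so the lower share was near that of all genes. Aes, which encodes a short Groucho-related protein that modulates the TCF corepressors, was at 194.8 ± 29.9 in NA and 274.9 ± 43.1 in WT (SD, n = 4 each), and the log2 fold change was -0.49 (0.0371). The call was lost without NA2, NA4, WT1, WT2 or WT4 (0.0526 to 0.122) and without the fourth libraries (0.165). It was also lost with no low-value filter (0.0734), without the variance trend (0.0765) and with the GC trend removed (0.117), where the log2 fold change was -0.31. The corepressor gene Tle4 had a log2 fold change of 0.26 (0.0780) and the co-activator gene Pygo2 of 0.15 (0.528).

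Of 17 genes commonly induced by Wnt signals, 4 were tested, Znrf3 among them. Of the other 3, 1 was higher (Myc) and 0 were lower by limma, beside 10.1% and 7.87% of all genes tested. These 3 genes are too few for a statement about Wnt targets as a set. Myc, a growth-promoting transcription factor with many other inputs, was at 708.5, 850.7, 576.1 and 770.1 in NA1 to NA4 and 290.3, 526.6, 260.7 and 370.2 in WT1 to WT4, with WT2 nearest to the NA group. Its log2 fold change was 1.04 (adjusted p = 0.00185 by limma), and it held under all 19 alternatives (0.0219 without the fourth libraries). Ccnd1, the gene of cyclin D1, had a log2 fold change of 0.57 (0.247), which passed without NA2 (0.0396), and the adhesion receptor gene Cd44 of 0.13 (0.363). Lgr5 was between 3.4 and 13.8 normalised counts, and Sp5, Notum and Tnfrsf19 were at 0 in every library.

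In the planar polarity branch, which signals through small GTPases without beta-catenin, 3 of 10 tested genes were higher and 0 lower by limma, again beside 10.1% and 7.87% of all genes. Rock1 and Rock2, which encode kinases of the actin cytoskeleton, had log2 fold changes of 0.62 (0.00373) and 0.46 (0.0141), and Rhoa, which encodes a small GTPase, of 0.40 (0.0472). Rock1 held under all 19 alternatives (0.0359 without the fourth libraries). Rock2 was lost without NA4 (0.0578), without the fourth libraries (0.144), without the variance trend (0.0513) and with the GC trend removed (0.0851), where its log2 fold change was 0.28. Rhoa was lost in 14 of 19 alternatives, among them leaving out any 1 library other than NA3 (0.0745 to 0.132) and the replicate block (0.0576). The core polarity genes Vangl1 and Vangl2 did not pass, with log2 fold changes of -0.10 (0.868) and 0.18 (0.561).

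**Figure D4:**
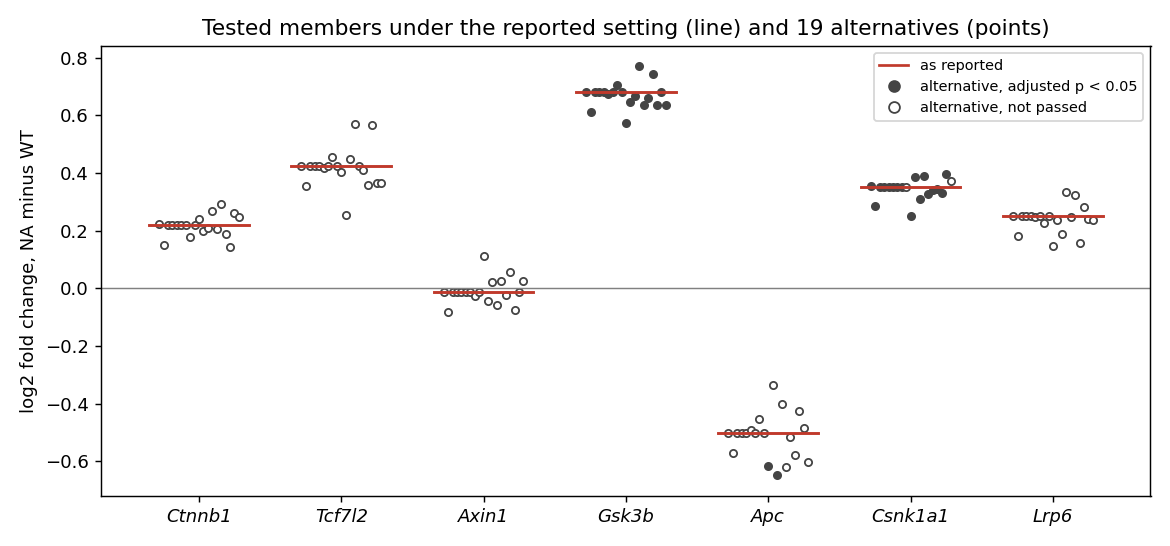
Log2 fold change, NA minus WT, of the 7 tested members as reported (red line) and under the 19 alternatives (points, filled where the adjusted p passed 0.05). Gsk3b stays filled between 0.57 and 0.77, Csnk1a1 has 2 open points, Apc has 2 filled points, and Axin1 lies on both sides of 0.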

How the data were processed

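Per the labels and the study's methods, the authors used RSEM and DESeq2 on reads of amplified poly(A) cDNA, with mm10 as the build. Versions, annotation and strand use were not given in the sources used here. Although the deposited table is called raw, it holds a normalised signal, in which each library's RSEM counts had been divided by a size factor. Between 98.3% and 98.8% of values from 0.5 to 20 lay within 0.02 of a whole multiple of that library's step (0.888 to 1.18), and the total divided by the step gave the estimated reads. Floors from these cover counting error only. Symbols, positions, exon lengths and GC content came from GENCODE M21 (GRCm38), which named 32916 of 37980 rows. Other annotated genes overlap 8 of the 10 members, and their reads were not separated.

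The fit used limma 3.58.1 (R 4.3.3) with log2(normalised count + 1), no covariates and a mean-variance trend. It covered genes at 10 or more in at least 4 of the 8 libraries. Its code was also run on simulated counts with independent libraries and the same spread setting for all genes. That run cannot show how the fit behaves with amplified cDNA, the sex difference or the fourth libraries of these data. The 19 alternatives covered scaling, filters, pseudocounts, a replicate block, depth class, the variance trend, GC content and omitted libraries. Genes named are the 10 members and, in each role, up to 3 called genes in each direction with the largest change. Csnk1e, Ryk and the genes that did not pass were named after their values were seen. The members, lists and alternatives were chosen with earlier results of these data known.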

Additional observations from a re-analysis of the deposited data

Results flagged for a closer look

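Values were screened with Dixon's test at its 95% critical value in 20 sets of 4 libraries, and 3 sets had a library apart from the rest, where chance gives about 1. Ctnnb1 was at 1279.68 normalised counts in NA3, below the 1447 to 1477 of NA1, NA2 and NA4. Without NA3 its log2 fold change was 0.27 (adjusted p = 0.0923 by limma) in place of 0.22. NA4 was shallower, with 3887847 estimated reads where NA1 to NA3 had 4909380 to 4917008. WT2 and WT3 were of similar depth to NA4, at 3960950 and 3876893, and the screen, made within each group, did not flag them. With depth class as a covariate Gsk3b and Csnk1a1 still passed (adjusted p = 0.00309 and 0.0225 by limma). The 10 most abundant genes held 10.2% of the normalised counts of NA3 and 12.2% to 12.5% of those of NA1, NA2 and NA4. The 6 stroma and endothelium markers summed to 230.8 in NA3 and at most 137.0 elsewhere, and their part in these values was not tested.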

How the results depend on the processing

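Of 11451 genes tested, 2053 passed, 1152 higher and 901 lower in NA. Leaving out the fourth libraries left 524, 379 higher and 145 lower, and 1 member, Gsk3b. Dropping the variance trend left 595 lower genes and 1 member. With the GC trend removed 1 member, Apc, was lower. Leaving out 1 library at a time gave 1125 (without NA4) to 2176 genes, 675 to 1186 higher and 450 to 1001 lower, with 1279 genes without WT4. It gave 2 to 3 members, 2 of them higher and 0 to 1 lower (Apc, without NA2). Total-count scaling turned the share of calls that were higher from 56.1% to 41.4%. The log2 fold change of Axin1 changed sign to 0.11 with the GC trend removed and to 0.025 without the fourth libraries, and ran from -0.074 to 0.057 with 1 library left out. The causes were not tested. Same-numbered libraries had correlated deviations of 0.0131 to 0.158, so the numbers were not taken as pairs. With the replicate block 2004 genes and the same 2 members passed, and not every library correlated best with its own number. The planned edgeR and DESeq2 fits on recovered reads were not run, because not all values could be turned back into whole reads. Depth limited Tcf7, Lef1 and Axin2.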

Other observations

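Deviations of Ctnnb1 from its group mean were compared with those of 11450 other tested genes over the 8 libraries, as Pearson r on the log2 scale and as a description only. The most alike were Tmem170b (r = 0.977), Begain (0.971) and the unnamed row ENSMUSG00000091833 (0.968), and 68 genes had r of at least 0.9. Among the members r was highest for Lrp6 (0.493), Csnk1a1 (0.416) and Gsk3b (0.330). All genes of a library share its depth and size factor.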
